A study of Homo sapiens with 6 samples.

Results

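The genes described here were the protein-coding genes on the short arm of human chromosome 17 that were expressed in SUM159 breast cancer cells. They were chosen by position and level, as genes that GENCODE places on chromosome 17 (GRCh38) with a start before 22 Mb and a mean over the 6 libraries of at least 8 CPM (counts divided by the library total and multiplied by 1e6). Of 344 protein-coding genes in that window, 149 reached the level, and 4 of these were left out by symbol (XAF1, SERPINF1, SREBF1 and COX10), which left 145 genes out of 9530 protein-coding genes of the same level in the whole table. The window was singled out because its genes had low ratios of ITGB4-high cells to control cells in these same libraries. Those ratios, and the ratios of each lung library to its own clone, therefore selected the genes and are given here as a description with no test over the genes.

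SUM159 is a triple-negative human breast cancer line with a mesenchymal character. Its cells were told apart by ITGB4, a beta chain of integrin that holds epithelial cells to the basement membrane. The ITGB4-high cells were grown in dishes (n = 1 library). The 3 lung libraries came from ITGB4-low cells injected through the tail vein into mouse lungs. For 2 of them (clones 1 and 3), LM2 cells, a subline of MDA-MB-231 breast cancer cells that grows in lung, were injected along with them. The treatment protocol names clone 1 only, so the LM2 library of clone 3, and each value set against its own control, rests on its title. For the other (clone 1), mice received bleomycin, which damages lung tissue and causes inflammation, through the trachea. The lungs were dissociated, the suspension was kept in culture overnight, and tdTomato-positive tumour cells were sorted on the next day. The control libraries were the ITGB4-low clones 1 and 3 grown in dishes (n = 2). Every group is the same human line, each ITGB4-low library is from 1 clone, and the age, strain and number of the mice were not stated in the labels. The passage through the lung and the trigger come together in all lung libraries, so they cannot be told apart.

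The short arm of chromosome 17 is rich in genes that most dividing cells use. It carries the largest subunit of RNA polymerase II, the mitotic kinase Aurora B, parts of the splicing, proteasome and vesicle machinery, and several growth-restraining genes. As general background, genes that are neighbours on an arm have unrelated functions for the most part, but they share the number of DNA copies and the time of replication of their stretch of chromosome. DNA was not measured in these libraries, and whether the copy number of the arm differs between the cells was not tested.

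Total counts were 13607953 in the ITGB4-high library, 13647997 and 15298001 in the LM2 lung libraries of clones 1 and 3, 15446892 in the bleomycin lung library, and 14013264 and 22222121 in the controls of clones 1 and 3. A floor of 3 counts equals 0.135 to 0.22 CPM by library total alone. The levels of single libraries given below are CPM also scaled by TMM, a factor that aligns the bulk of genes between libraries. Floors and counting intervals cover counting error only, as the labels name no molecular identifiers that would tell molecules from PCR copies. ITGB4, which lies on the long arm (17:75721328-75757818), stood at 385 CPM in ITGB4-high cells, at 468, 437 and 304 CPM in the LM2 clone 1, LM2 clone 3 and bleomycin lung cells, and at 25.6 and 25.2 CPM in controls of clones 1 and 3, as the labels state for the cultured cells. Vimentin, a mesenchymal marker, was at 2163 CPM or more in all 6 libraries, and the epithelial marker EPCAM had at most 3 counts in any. Macrophage markers summed to 1.83 CPM in ITGB4-high cells, 4.05 to 11.2 CPM in lung cells and 3.62 to 4.31 CPM in controls, over 5 of 7 genes with more than 3 counts in a library. AIF1, CDH5, SFTPC, SCGB1A1, CD2, MS4A1 and CD3E, defining markers of macrophages, endothelium, lung epithelium and lymphocytes, were at 0 in all 6 libraries. The counts are of human genes and the lungs were of mice, so a 0 does not show that lung tissue was absent. The lists hold no markers of LM2 cells, and whether any were carried over was not tested. Other genes of these lists were detected. The leukocyte gene PTPRC was at 0.0733 CPM in ITGB4-high cells, at 2.31, 0.253 and 2.68 CPM in LM2 clone 1, LM2 clone 3 and bleomycin lung cells, and at 0.205 and 0.188 CPM in controls. In the bleomycin library the macrophage receptor MARCO was at 6.05 CPM and the endothelial PECAM1 at 9.36 CPM, against 2.46 and 1.78 CPM in the control of its clone. The alveolar gene AGER was at 2.49 CPM in ITGB4-high cells, 2.85 to 3.78 CPM in lung cells, and 2.26 and 1.83 CPM in controls. NKX2-1, a lung and thyroid factor, was at 0 in ITGB4-high cells, at 0, 1.39 and 0 CPM in the lung libraries in the same order, and at 4.03 and 3.99 CPM in controls. The endothelial receptor KDR was at 3.08 CPM in ITGB4-high cells, 0.154 to 6.46 CPM in lung cells, and 69.9 and 108 CPM in controls of clones 1 and 3. The part of KDR or of the other markers in the results was not tested. In bulk libraries, fewer cells with an RNA and less of that RNA per cell cannot be told apart.

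ITGB4-high cells had less RNA of most short-arm genes than either control clone. Ratios between libraries were taken as log2 of CPM scaled by TMM (a factor that aligns the bulk of genes between libraries), with 1 CPM added to both sides, so that they understate the change of low genes. The median log2 ratio of the 145 genes was -0.77 over control clone 1 and -0.82 over control clone 3, against 0.06 and -0.03 for the 9381 genes of the same level outside the window. For the mean of both ratios the median was -0.82 for the short arm, with a middle 50% of genes between -1.14 and -0.54, against 0.02 elsewhere. The 2 controls lay close together on the short arm, with a median log2 ratio of clone 3 over clone 1 of 0.06 and an SD over genes of 0.159, against 0.09 and 0.179 elsewhere.

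The genes did not share 1 ratio. Of the 145 genes, 6 had a mean log2 ratio below -2, 6 lay between -2 and -1.5, 37 between -1.5 and -1, 63 between -1 and -0.5, 27 between -0.5 and 0, and 6 above 0. Outside the window 51.4% of genes were above 0. In 107 of 145 short-arm genes (73.8%) ITGB4-high cells were lower than both controls by log2 0.5 or more, which 16.4% of all 9530 genes met. In 136 genes they were lower than both controls by any amount, against 44.0% of all genes. They were higher than both controls by log2 0.5 or more in 3 genes, against 13.1% of all genes. The ITGB4-high library held the lowest of the 6 levels for 131 genes (90.3%), against 24.7% of all genes, while the LM2 clone 1 library held the lowest for 6 genes and the bleomycin library for 0. These counts use the ratios that chose the window, so nothing further is read from them.

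As a share of all counts, the 145 genes made up 0.633% of the ITGB4-high library (95% Wilson interval 0.629 to 0.637%), 1.09, 1.14 and 1.07% of the LM2 clone 1, LM2 clone 3 and bleomycin lung libraries, and 1.12 and 1.11% of the controls of clones 1 and 3. The rest of chromosome 17 made up 4.22% of the ITGB4-high library, 3.67 to 3.94% of the lung libraries, and 3.79 and 3.8% of the controls. The counts of the short arm divided by those of the rest of the chromosome came to 0.15 in ITGB4-high cells, 0.272 to 0.298 in lung cells, and 0.295 and 0.291 in controls. Only the ITGB4-high library was apart, and the other 5 libraries fell within a narrow range.

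The change in ratio came near the centromere. In windows along the arm the median of the mean log2 ratio of ITGB4-high over control was -0.85 at 0 to 5 Mb (53 genes), -0.84 at 5 to 10 Mb (47 genes), -0.60 at 10 to 15 Mb (5 genes) and -0.76 at 15 to 22 Mb (40 genes). Of the 5 genes in the 10 to 15 Mb window all were lower than both controls, but 5 genes are too few to set the window apart. Past the centromere only 2 genes of the level started between 22 and 28 Mb. WSB1, a ubiquitin ligase subunit, had log2 ratios of 0.41 and 0.27 over the controls of clones 1 and 3, and KSR1, a scaffold of the RAS to ERK cascade, had -1.89 and -1.82. The next gene, the kinase NLK, had 0.63 and 0.44. The 47 genes at 28 to 33 Mb had a median of 0.16, and the 409 genes on the rest of chromosome 17 a median of 0.08. Of these 409 genes 49 were lower than both controls by log2 0.5 or more. Whether the border follows the centromere or lies elsewhere between the last short-arm gene and WSB1 cannot be read from RNA, as no gene of the level lies between them.

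**Figure D1:**
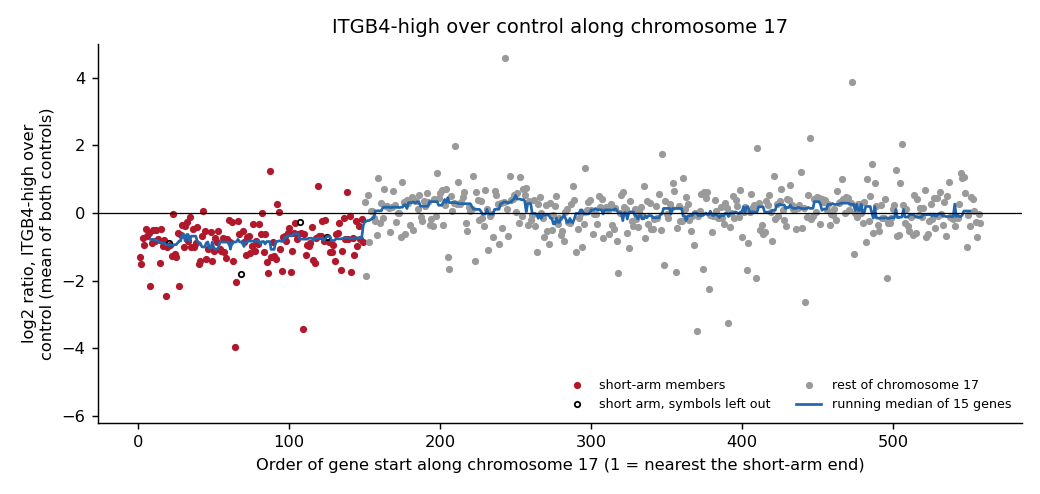
Mean log2 ratio of ITGB4-high over the control clones 1 and 3 (vertical axis) for each expressed protein-coding gene of chromosome 17, in order of gene start (horizontal axis). Red points are the 145 short-arm genes, open points the 4 left out by symbol, grey points the 409 genes of the rest of the chromosome, and the line is a running median of 15 genes. The line lies near -0.8 along the short arm and near 0 along the rest of the chromosome.

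No whole chromosome other than 17 had a median as far from 0 as the short arm of 17 in this comparison. This sets an arm against whole chromosomes. The arms of other chromosomes were not taken apart, so the rank of the short arm among arms was not tested. Over the other 23 sets of genes (the remaining chromosomes, X and the mitochondrial genome), the median of the mean log2 ratio ran from -0.21 on chromosome 18 to 0.18 on chromosome 21. The distal part of the long arm of chromosome 3, from 150 Mb on, went the other way, with a median of 0.46 over 119 genes. Chromosome 3 as a whole had 0.16. The plot of medians by chromosome shows the short arm of 17 below every other point for ITGB4-high cells.

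**Figure D2:**
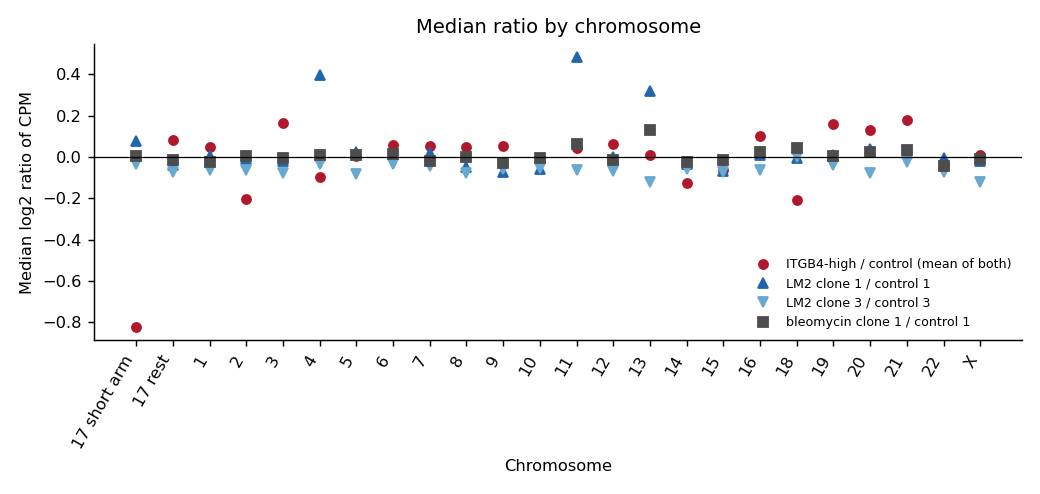
Median log2 ratio of CPM (vertical axis) over the expressed protein-coding genes of each chromosome (horizontal axis, with the short arm of 17 and the rest of 17 apart), for ITGB4-high over both controls and for each lung library over the control of its own clone. The short arm stands at -0.82 in ITGB4-high cells and at 0.08, -0.04 and 0.01 in LM2 clone 1, LM2 clone 3 and bleomycin lung cells.

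Lung-recovered cells, whose ITGB4 level was also far above that of controls, had short-arm RNA near the level of their own controls. The median log2 ratio of the 145 genes was 0.08 for LM2 clone 1, -0.04 for LM2 clone 3 and 0.01 for bleomycin clone 1, each over the control of its own clone, against 0.03, -0.06 and -0.0026 elsewhere in the genome. Scaled by library totals in place of TMM, the 3 medians elsewhere were -0.10, 0.04 and -0.04, so ratios of this size are to be read against them. The ratios for LM2 clone 1 and bleomycin clone 1 share a control library. The mean of the 3 ratios had a median of -0.01 for the short arm and -0.01 elsewhere. Every lung library was lower than its own control by log2 0.5 or more in 2 of the 145 genes, WSCD1 and ZNF594, against 4.76% of all genes. Every lung library was higher by that much in 4 genes, SPECC1, PER1 and FAM83G among them, against 2.95% of all genes. Set directly against the lung libraries, ITGB4-high cells had a median log2 ratio on the short arm of -0.86 over LM2 clone 1, -0.78 over LM2 clone 3 and -0.76 over bleomycin clone 1, against 0.0034, 0.04 and 0.05 elsewhere.

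**Figure D3:**
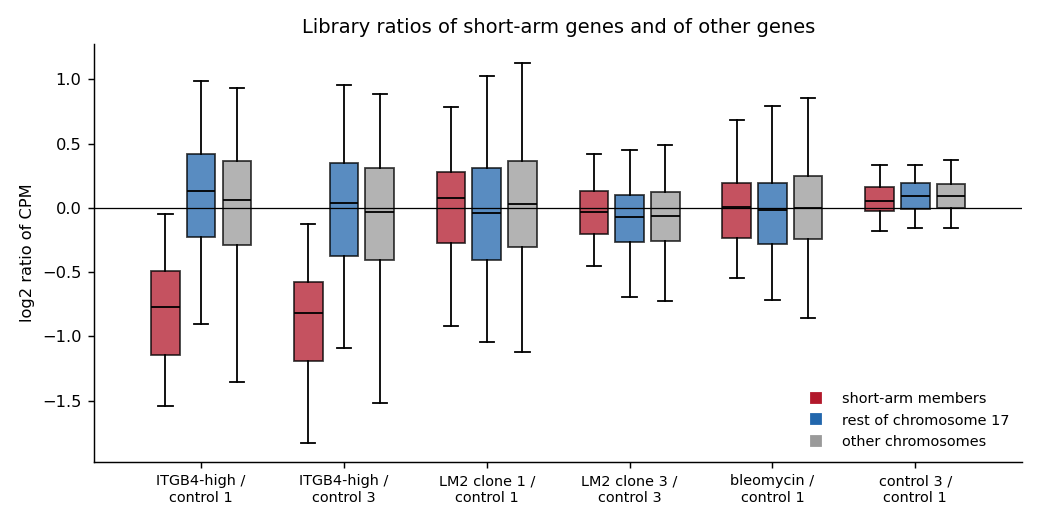
Log2 ratios of CPM (vertical axis) between the libraries named below each group of boxes, for the 145 short-arm genes, the rest of chromosome 17 and the other chromosomes. Boxes span the middle 50% of genes with the median as a line, and whiskers run from the 5 to the 95 percentile. The short-arm boxes lie below 0 in both ITGB4-high comparisons, and their medians lie within 0.08 of 0 in the lung comparisons and in control clone 3 over clone 1.

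Clone 1 was recovered under both triggers, and the bleomycin library had a median log2 ratio over the LM2 library of -0.11 on the short arm and -0.04 elsewhere, 1 library each. Scaled by library totals alone, the medians were -0.02 on the short arm and 0.05 elsewhere. The LM2 clone 1 library had raised medians on other chromosomes, 0.48 on chromosome 11, 0.40 on chromosome 4 and 0.32 on chromosome 13. Over 13 genes of the mitochondrial genome the median over own control was 0.33 in LM2 clone 1, 0.33 in the bleomycin library and -0.10 in LM2 clone 3. The bleomycin library had 0.59 on chromosome 11 before 28 Mb, where LM2 clone 1 had 0.50.

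Short-arm genes of low and high expression and of both strands had similar medians in ITGB4-high over control. In 3 bins of mean CPM, the medians were -0.83 in the lowest bin (49 genes), -0.86 in the middle bin (48 genes) and -0.74 in the highest bin (48 genes). The 64 genes on the plus strand had a median of -0.83 and the 81 on the minus strand -0.78. How the counting treated strand is unknown here, and 105 of the 145 genes overlap a gene on the other strand. The 40 that overlap none had a median of -0.84. The window also held genes that were no members. Its 47 protein-coding genes with a mean of 1 to 8 CPM had a median of -0.79, against -0.17 for 2066 such genes elsewhere, and its 25 non-coding genes of at least 1 CPM had -0.60, against 0.05 for 1593 elsewhere. The most abundant of the non-coding genes, LRRC75A-AS1, with a mean of 1061 CPM over the libraries, had log2 ratios of -1.12 and -1.15 over the controls of clones 1 and 3. MIR22HG, the host transcript of miR-22, had 0.17 and 0.27.

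The lowest mean log2 ratio of ITGB4-high over control was -3.97. It belonged to WSCD1, a gene named for its WSC domain (ENSG00000179314, 17:6057807-6124427, plus strand), which was at 0.22 CPM or 3 counts in ITGB4-high cells. It was at 6.79 CPM in LM2 clone 1, 8.48 CPM in LM2 clone 3 and 4.46 CPM in bleomycin lung cells, and at 18.8 and 17.4 CPM in controls of clones 1 and 3. The 3 groups did not overlap, with ITGB4-high cells lowest and lung cells between. The count ratio of ITGB4-high to control was 0.0117 over clone 1 (exact 95% counting interval 0.0024 to 0.0345) and 0.0126 over clone 3 (0.0026 to 0.0372).

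PMP22, a membrane protein best known from peripheral myelin (17:15229777-15265357, minus strand), was at 6.45 CPM in ITGB4-high cells, at 20.7 CPM in LM2 clone 1, 47.7 CPM in LM2 clone 3 and 67.7 CPM in bleomycin lung cells, and at 67.3 and 94.6 CPM in controls of clones 1 and 3. Its mean log2 ratio of ITGB4-high over control was -3.44. The lung libraries were spread, with LM2 clone 1 low and the bleomycin library at the level of its control.

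TLCD2, a membrane protein with a TLC domain, was at 1.98 CPM in ITGB4-high cells, at 4.78, 12.2 and 8.92 CPM in LM2 clone 1, LM2 clone 3 and bleomycin lung cells, and at 15.4 and 14.9 CPM in controls. NXN, nucleoredoxin, a redox protein that binds Dishevelled in the Wnt pathway, was at 18.7 CPM in ITGB4-high cells, at 56.5, 86.3 and 60.6 CPM in the same order of lung libraries, and at 86.4 and 88.5 CPM in controls. In both genes the ITGB4-high library was lowest and no lung library was above either control. For NXN, LM2 clone 3 was level with the controls, at a log2 ratio of -0.04 over its own. SGSM2, an activator of the GTPase activity of Rab proteins, was at 8.21 CPM in ITGB4-high cells, at 21.1, 31.6 and 27.7 CPM in LM2 clone 1, LM2 clone 3 and bleomycin lung cells, and at 37.6 and 42.4 CPM in controls, so lung cells again lay between.

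At the other end, KDM6B, a demethylase that removes methyl groups from lysine 27 of histone H3, was higher in ITGB4-high cells. It was at 69.3 CPM in ITGB4-high cells, at 74.6, 34.9 and 49.5 CPM in LM2 clone 1, LM2 clone 3 and bleomycin lung cells, and at 30.5 and 27.4 CPM in controls. FAM83G, a scaffold that binds casein kinase 1, was at 38.2 CPM in ITGB4-high cells, at 76.8, 36.5 and 47.0 CPM in the same lung libraries, and at 24.3 and 24.7 CPM in controls. Both genes were above the controls in ITGB4-high cells and in all 3 lung libraries. HES7, a repressor of the segmentation clock, had 9.82 CPM in ITGB4-high cells and 7.66 and 8.46 CPM in controls. MYBBP1A, a nucleolar protein, had 94.6 CPM in ITGB4-high cells and 91.1 and 91.8 CPM in controls, and PER1, a repressor of the circadian clock, had 56.0 CPM in ITGB4-high cells and 52.9 and 57.5 CPM in controls.

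Promoters of genes near both ends are printed to let the contrast be seen beside the values. They are those of the 2 lowest and the 2 highest genes that have a promoter entry, so a gene without an entry was passed over. Promoters of a pair that starts back to back and is described further on are printed as well. Each is 250 bases before to 50 bases after the first-listed RefSeq start of the gene (GRCh38.p14), read on the strand of the gene, and that start can differ from the GENCODE one. Capitals mark GC boxes, the letters GGGCGG or their reverse complement CCGCCC, a common element of promoters without a TATA box. The windows are, in order, 17:6068866-6069165 (plus), 17:15265277-15265576 (minus), 17:7833967-7834266 (plus), 17:19004715-19005014 (minus), 17:7931950-7932249 (minus) and 17:7931831-7932130 (plus).
WSCD1: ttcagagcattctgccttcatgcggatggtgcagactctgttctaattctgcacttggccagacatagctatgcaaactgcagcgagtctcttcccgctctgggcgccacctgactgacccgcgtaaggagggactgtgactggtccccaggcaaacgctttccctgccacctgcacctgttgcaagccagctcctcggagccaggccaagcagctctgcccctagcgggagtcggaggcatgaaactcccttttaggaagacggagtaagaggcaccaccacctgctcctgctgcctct
PMP22: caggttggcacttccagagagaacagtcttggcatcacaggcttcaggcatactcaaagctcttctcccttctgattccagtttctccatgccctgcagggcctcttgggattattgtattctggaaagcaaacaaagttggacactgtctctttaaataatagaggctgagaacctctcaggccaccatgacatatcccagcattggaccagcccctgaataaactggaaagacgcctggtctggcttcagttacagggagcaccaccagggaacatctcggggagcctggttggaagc
KDM6B: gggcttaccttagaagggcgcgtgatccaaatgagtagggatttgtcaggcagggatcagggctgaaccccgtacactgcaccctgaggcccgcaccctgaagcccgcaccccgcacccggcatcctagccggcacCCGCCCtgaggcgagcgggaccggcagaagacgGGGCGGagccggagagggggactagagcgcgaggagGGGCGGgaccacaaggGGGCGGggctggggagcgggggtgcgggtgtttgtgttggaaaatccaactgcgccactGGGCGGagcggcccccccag
FAM83G: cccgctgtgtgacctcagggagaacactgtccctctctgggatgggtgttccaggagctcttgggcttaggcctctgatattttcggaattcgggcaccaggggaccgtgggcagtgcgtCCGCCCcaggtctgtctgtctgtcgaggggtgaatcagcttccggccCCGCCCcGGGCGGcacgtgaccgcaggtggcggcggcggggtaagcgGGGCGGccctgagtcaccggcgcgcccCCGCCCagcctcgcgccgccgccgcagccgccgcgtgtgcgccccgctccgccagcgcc
TRAPPC1: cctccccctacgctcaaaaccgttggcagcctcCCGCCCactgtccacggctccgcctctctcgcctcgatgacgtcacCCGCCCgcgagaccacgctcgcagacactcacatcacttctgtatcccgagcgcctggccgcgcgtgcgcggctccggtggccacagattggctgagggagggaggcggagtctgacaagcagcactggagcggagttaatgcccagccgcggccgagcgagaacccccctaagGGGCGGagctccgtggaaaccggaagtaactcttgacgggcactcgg
CNTROB: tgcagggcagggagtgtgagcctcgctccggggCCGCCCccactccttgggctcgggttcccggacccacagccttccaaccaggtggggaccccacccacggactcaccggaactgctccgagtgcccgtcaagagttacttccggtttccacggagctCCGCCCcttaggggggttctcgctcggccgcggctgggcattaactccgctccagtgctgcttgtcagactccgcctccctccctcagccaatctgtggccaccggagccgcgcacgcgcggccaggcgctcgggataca
The windows of WSCD1 and PMP22 held 0 GC boxes, with 11 and 2 CG dinucleotides, while those of KDM6B and FAM83G held 5 each, with 24 and 34 CG dinucleotides. Over the short arm this contrast did not carry on. A window was found for 128 of the 145 genes, and 96 of them (75%) held a GC box, against 44.6% of all 27305 first-listed promoters. The latter were not limited to expressed or protein-coding genes, so the shares are of unlike sets. The share was 74.5% in the 94 genes that were lower than both controls by log2 0.5 or more and 76.5% in the other 34, with medians of 28 and 26.5 CG dinucleotides. A match of letters is a description and says nothing of which factor binds.

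**Figure D4:**
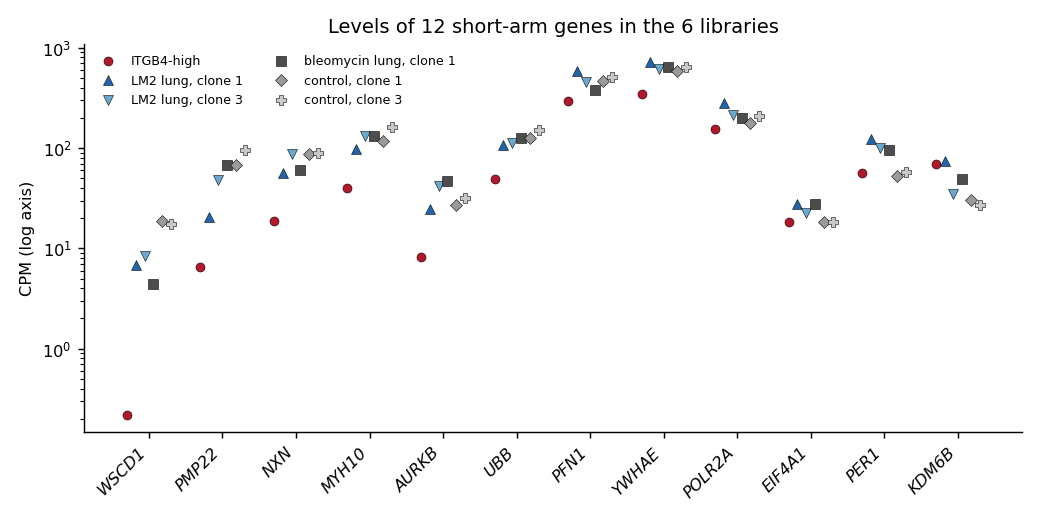
CPM on a log axis (vertical axis) of 12 short-arm genes (horizontal axis) in each of the 6 libraries, with ITGB4-high at the left of each gene, the lung libraries next and the controls at the right. ITGB4-high is the lowest point for the genes from WSCD1 to POLR2A, while for EIF4A1 and PER1 it lies at the level of the controls and for KDM6B above them.

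The genes were next read by role, over 11 lists that hold 121 of the 145 genes (24 are in no list). The lists were drawn up by known function with earlier results of these data in view. Lower than both controls by log2 0.5 or more were 73.8% of the 145 genes and 16.4% of all genes. Lower than both controls by any amount were 93.8% of the 145 genes and 44.0% of all genes. The counts by list are to be read against these shares. The medians of the lists ran from -0.99 to -0.60, and the lists share genes in some cases, so they are not separate samples of the arm. In lung cells the list medians ran from -0.13 to 0.11, except for -0.50 in the list of surface genes.

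RNA polymerase II, Mediator and RNA processing had 15 expressed genes, all lower in ITGB4-high cells than in both controls and 10 of them by log2 0.5 or more, with a median of -0.60. POLR2A, the catalytic subunit of RNA polymerase II, was at 154 CPM in ITGB4-high cells, at 278, 211 and 199 CPM in LM2 clone 1, LM2 clone 3 and bleomycin lung cells, and at 177 and 208 CPM in controls of clones 1 and 3. PRPF8, the core protein of the spliceosome, was at 299 CPM in ITGB4-high cells, at 706, 574 and 588 CPM in lung cells, and at 496 and 551 CPM in controls. The gap was larger for PRPF8, at a mean log2 ratio of -0.80, than for POLR2A, at -0.32. NUP88, a nuclear pore protein, had -1.14, and DHX33, an RNA helicase, -0.20.

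Of 10 translation genes 6 were lower by that much, with a median of -0.61. EIF5A, an elongation factor that carries hypusine, was at 213 CPM in ITGB4-high cells, at 533, 421 and 364 CPM in LM2 clone 1, LM2 clone 3 and bleomycin lung cells, and at 412 and 436 CPM in controls. RPL26, a protein of the large ribosomal subunit, was at 249.7 CPM in ITGB4-high cells, at 259, 360 and 374 CPM in lung cells, and at 353 and 406 CPM in controls. EIF4A1, the helicase that opens messenger RNA for initiation, was at 18.2 CPM in ITGB4-high cells, at 27.8, 22.7 and 27.4 CPM in lung cells, and at 18.2 and 18.5 CPM in controls. It has close copies, so its count is uncertain.

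Chromatin regulators and transcription factors spread the most, from a mean log2 ratio of -1.77 to 1.24 over 16 genes, with a median of -0.68 and 11 genes lower by log2 0.5 or more. NCOR1, a corepressor of nuclear receptors, was at 146.5 CPM in ITGB4-high cells, at 304, 289 and 257 CPM in LM2 clone 1, LM2 clone 3 and bleomycin lung cells, and at 266 and 275 CPM in controls. CHD3, a remodeller of the NuRD complex, was at 178 CPM in ITGB4-high cells, at 276, 273 and 241 CPM in lung cells, and at 303 and 338 CPM in controls. The histone deubiquitinase USP22 had a mean log2 ratio of -0.99, and RAI1, the gene of Smith-Magenis syndrome, -0.19.

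All 15 genes of mitosis, telomeres and DNA repair were lower than both controls, 10 of them by log2 0.5 or more, with a median of -0.82. AURKB, the Aurora B kinase of the chromosomal passenger complex, was at 8.28 CPM in ITGB4-high cells, at 24.6, 41.6 and 46.6 CPM in LM2 clone 1, LM2 clone 3 and bleomycin lung cells, and at 26.8 and 31.9 CPM in controls. PIMREG, a regulator of mitosis, was at 6.45 CPM in ITGB4-high cells, at 9.10, 28.4 and 28.2 CPM in lung cells, and at 26.1 and 33.2 CPM in controls. LM2 clone 1 was the lowest lung library for both. RPA1, which coats single-stranded DNA, had a mean log2 ratio of -1.27. PAFAH1B1, a partner of dynein, was at 144 CPM in ITGB4-high cells, at 285, 296 and 249 CPM in lung cells, and at 290 and 292 CPM in controls. YWHAE, a 14-3-3 adaptor, was at 345 CPM in ITGB4-high cells, at 727, 620 and 640 CPM in lung cells, and at 581 and 642 CPM in controls.

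Signalling genes (13 kinases, adaptors and regulators of small GTPases) had a median of -0.73, with 8 lower by log2 0.5 or more. INPP5K, an inositol phosphatase, had a mean log2 ratio of -1.49, DVL2, a Dishevelled protein of Wnt signalling, -1.23, and the adaptor CRK -0.51. ARRB2, beta-arrestin 2, was at 17.5 CPM in ITGB4-high cells, at 16, 41.1 and 27.6 CPM in LM2 clone 1, LM2 clone 3 and bleomycin lung cells, and at 45.7 and 46.9 CPM in controls. LM2 clone 1 was as low as ITGB4-high cells there, unlike LM2 clone 3. MAP2K4, the kinase upstream of JNK, was at 20.7 CPM in ITGB4-high cells, at 41.1, 33.7 and 36.9 CPM in lung cells, and at 32.1 and 40.4 CPM in controls.

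In the list of ubiquitin, proteasome and autophagy genes 9 of 9 were lower than both controls by log2 0.5 or more, with a median of -0.99 and a range from -1.48 to -0.68. UBB, a polyubiquitin gene, was at 49.5 CPM in ITGB4-high cells, at 106, 111 and 126 CPM in LM2 clone 1, LM2 clone 3 and bleomycin lung cells, and at 127 and 153 CPM in controls. Its repeats resemble those of other ubiquitin genes, so reads may have been split between them. PSMB6, a catalytic subunit of the proteasome, was at 15.5 CPM in ITGB4-high cells, at 46.6, 37.6 and 30.1 CPM in lung cells, and at 32.8 and 34.3 CPM in controls. COPS3, of the COP9 signalosome, had a mean log2 ratio of -0.69.

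Vesicle traffic held 13 genes, all lower than both controls and 10 of them by log2 0.5 or more, with a median of -0.87. KIF1C, a kinesin motor, was at 131 CPM in ITGB4-high cells, at 173, 216 and 160 CPM in LM2 clone 1, LM2 clone 3 and bleomycin lung cells, and at 265 and 287 CPM in controls. ANKFY1, a Rab5 effector, was at 47.3 CPM in ITGB4-high cells, at 93.2, 104 and 84.5 CPM in lung cells, and at 119.5 and 137 CPM in controls. In both genes lung cells lay between. RABEP1, another Rab5 effector, had a mean log2 ratio of -0.74. TVP23B and SPECC1 were near the controls at -0.15 and -0.24, and TVP23B has a close copy, TVP23C, on the same arm.

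The cytoskeleton list held 7 genes, all lower by log2 0.5 or more, with a median of -0.78. It counts in NXN, the redox protein described above, at -2.17, while SPECC1, at -0.24, was placed with vesicle traffic. The count thus depends on how genes were placed. MYH10, the heavy chain of non-muscle myosin IIB, was at 40.4 CPM in ITGB4-high cells, at 97.2, 133 and 132 CPM in LM2 clone 1, LM2 clone 3 and bleomycin lung cells, and at 118 and 162 CPM in controls. PFN1, profilin 1, which feeds actin to growing filaments, was at 296 CPM in ITGB4-high cells, at 592, 457 and 377 CPM in lung cells, and at 471 and 511 CPM in controls. Per kilobase of exon PFN1 was the most abundant of the 145 genes, with a mean over the libraries of 226 CPM per kilobase, followed by YWHAE at 154 CPM per kilobase. MPRIP, which targets myosin phosphatase, had a mean log2 ratio of -0.74, and FLII, a gelsolin relative, -0.61.

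Of 9 mitochondrial genes, without COX10, which was left out by symbol, 8 were lower by log2 0.5 or more, with a median of -0.75. SLC25A11, the oxoglutarate carrier, had a mean log2 ratio of -1.43. ACADVL, the first enzyme of the oxidation of very long fatty acids, was at 67.3 CPM in ITGB4-high cells, at 131, 122 and 144 CPM in LM2 clone 1, LM2 clone 3 and bleomycin lung cells, and at 116 and 128 CPM in controls. Metabolic enzymes numbered 15, with 11 lower by log2 0.5 or more and a median of -0.81. ALDH3A2, which oxidises fatty aldehydes, was at 39.4 CPM in ITGB4-high cells, at 103.5, 133 and 114 CPM in lung cells, and at 111 and 163 CPM in controls. SHMT1, the cytosolic serine hydroxymethyltransferase, had a mean log2 ratio of -1.69, and PFAS, of purine synthesis, -0.67.

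Of 18 listed surface receptors, ligands and adhesion genes only 3 reached the level, PMP22, the integrin alpha-E chain ITGAE and the neuroligin NLGN2, and all were lower by log2 0.5 or more. ITGAE was at 5.79 CPM in ITGB4-high cells, at 9.64, 11.4 and 9.36 CPM in LM2 clone 1, LM2 clone 3 and bleomycin lung cells, and at 11.7 and 13.4 CPM in controls. Among the genes in no list, NLRP1, an inflammasome sensor, was at 8.94 CPM in ITGB4-high cells, at 61.1, 33.6 and 32.0 CPM in lung cells, and at 25.2 and 25.8 CPM in controls. It was thus below the controls in ITGB4-high cells and above them in every lung library.

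**Figure D5:**
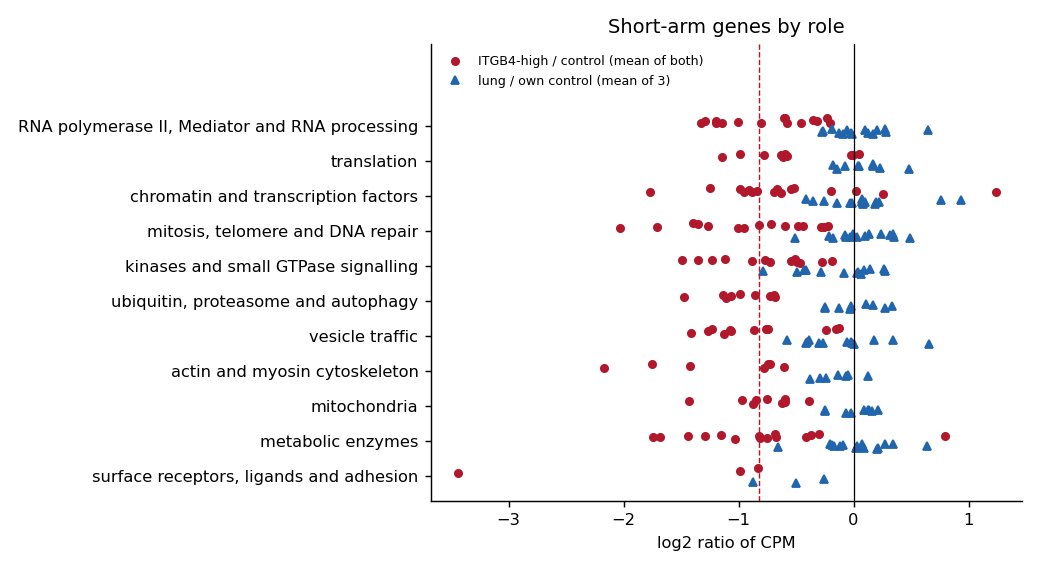
Log2 ratios of CPM (horizontal axis) of the short-arm genes in 11 role lists (vertical axis). Red points are ITGB4-high over control (mean of both controls), blue triangles lung over own control (mean of 3 libraries), and the dashed line is the median of ITGB4-high over control for all 145 genes. The red points of every list centre between -1 and -0.5, and the blue ones near 0 except for the 3 surface genes.

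Pairs of genes that start back to back within 1000 bp on opposite strands numbered 16, and in 16 of 16 both genes were lower in the mean of the ITGB4-high ratios. Only 6 of the 145 genes were above 0 in that mean, so most pairs of any kind would be lower too. Nothing about back-to-back pairs is read from this count. The ratios of such partners differed by a median of 0.33, against 0.53 for neighbouring genes and 0.48 for all pairs of the 145 genes, as a description. TRAPPC1, a subunit of a vesicle tethering complex, and CNTROB, a protein of the daughter centriole, whose promoter windows printed above overlap, had mean log2 ratios of -1.27 and -1.35. ZSWIM7 and TTC19 had -0.95 and -0.97, and CTC1 and PFAS -0.72 and -0.67. Other partners were far apart, as TSR1 at -0.58 and SGSM2 at -2.15, or ZZEF1 at -0.40 and CYB5D2 at -1.5.

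In lung cells the genes that stood farthest from their controls were named by the mean of the 3 ratios. The 5 lowest were WSCD1 at -1.39, ZNF594, a zinc finger protein, at -1.03, PMP22 at -0.87, TLCD2 at -0.83 and ARRB2 at -0.78. ZNF594 was at 9.23 CPM in ITGB4-high cells, at 9.48, 11.1 and 9.30 CPM in LM2 clone 1, LM2 clone 3 and bleomycin lung cells, and at 21.9 and 20.3 CPM in controls. The lung and ITGB4-high libraries were thus all below either control. The highest were FAM83G at 1.03, PER1 at 0.94, KDM6B at 0.76, the ciliary gene B9D1 at 0.70 and SPECC1 at 0.66. PER1 was at 123, 99.8 and 94.7 CPM in LM2 clone 1, LM2 clone 3 and bleomycin lung cells and at 52.9 and 57.5 CPM in controls. SPECC1, a coiled-coil protein, was at 51.1, 56.0 and 48.7 CPM in lung cells and at 32.1 and 33.5 CPM in controls. Lung cells and controls did not overlap for ZNF594, PER1 and SPECC1, and other genes named here, such as TLCD2, ARRB2 and KDM6B, had no overlap either. The genes were picked as the extremes of this ratio, and the share of all genes without overlap was not taken. Nothing further is read from it.

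A test over all genes was run for each comparison, and its calls for the 145 genes are listed beside the share of all genes called. All 145 genes passed the filter on low counts. In edgeR's quasi-likelihood test of ITGB4-high (n = 1) against control (n = 2), 0 of the 145 genes passed an adjusted p of 0.05, against 0.0893% of 15673 genes (14 genes). At an unadjusted p under 0.05, 103 genes were lower and 2 higher, against 14.2% and 10.4% of all genes. DESeq2 called 61 lower and 0 higher, against 7.66% and 3.3% of the genes it adjusted. With clone as a replicate block edgeR called 9, WSCD1, PMP22, SGSM2, NXN, MYH10, ALDH3A2, UBB and ANKFY1 among them, against 2.32% of all genes. WSCD1 was nearest to the threshold without the block (adjusted p = 0.0514, edgeR), with UBB and ANKFY1 next among those 8 (adjusted p = 0.0608 for each, edgeR). Since the ITGB4-high arm is 1 library, the spread came from the clone pairs. The window was chosen for low ratios in this same comparison, so more lower calls than elsewhere were fixed in advance. Nothing is read from that excess. Without the LM2 library of clone 1 or of clone 3 edgeR called 124 and 123 of the 145 genes, against 42.0% and 41.6% of all genes, and without the bleomycin library or either control it called 0.

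For all lung cells (n = 3) against control (n = 2), edgeR called 0 of the 145 genes, against 0.498% of all genes. At an unadjusted p under 0.05, 8 were lower and 10 higher, against 11.3% and 9.26% of all genes. DESeq2 called WSCD1 and ZNF594 lower (adjusted p = 0.00185 and 0.000456), against 3.93% of all genes, and 4 higher, among them SPECC1, PER1 and FAM83G (adjusted p = 0.00352, 0.000196 and 0.0189), against 4.02%. These genes were not called by edgeR, whose adjusted p was 0.0924 for WSCD1, 0.0654 for ZNF594 and PER1 each, 0.0817 for SPECC1 and 0.152 for FAM83G. The comparison of bleomycin (n = 1) with LM2 (n = 2) is not itself a ratio of the selection. It is not apart from the selection either, as each of these libraries enters a ratio to its own control there. In it edgeR called 0 of the 145 genes, against 0.0% of all genes, and DESeq2 0, against 0.417%. At an unadjusted p under 0.05, 1 gene was lower (ELP5, of the Elongator complex) and 2 were higher (CENPV and DLG4), against 2.58% and 2.04% of all genes.

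The limits of the selection cut through genes of the same kind. Just above a mean of 8 CPM were B9D1, with log2 ratios of ITGB4-high over controls of clones 1 and 3 of -0.07 and -0.12, HES7 with 0.32 and 0.19, and RPH3AL with -1.40 and -1.22. Just below it were the Mediator subunits MED31, with -0.92 and -1.05, and MED11, with -0.77 and -0.93, and WRAP53, a carrier of telomerase, with 0.09 and -0.17. Nearest to 22 Mb were TMEM11 with -0.62 and -0.89, MAP2K3 with 0.06 and -0.43, and C17orf51, protein-coding in GENCODE release 29, with -0.97 and -0.76. Of the 4 genes left out by symbol, COX10 had -0.21 and -0.30, SREBF1 -0.46 and -0.93, SERPINF1 -1.10 and -0.67, and XAF1 -2.0 and -1.58. In lung cells, XAF1 and SERPINF1 had mean log2 ratios of 3.75 and 3.70 over their own controls.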

How the data were processed

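Poly(A) RNA was sequenced from 6 libraries, and the deposited values are whole-number counts of reads per gene that the authors made. The submitters' processing notes name STAR 2.7.1a and hg38. Counter, annotation and strand setting: not given in the sources used here. Of 58336 identifiers, 58216 matched GENCODE release 29, which gave positions and gene types, and 120 did not.

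Levels (CPM) of single libraries are counts divided by the library total and its TMM factor and multiplied by 1e6. Means of CPM over the libraries, as in the selection, and the floors used the library total alone. Ratios used the TMM-scaled CPM with a prior of 1 CPM on both sides. Tests were edgeR 4.0.16 quasi-likelihood fits (R 4.3.3) over all 6 libraries after filterByExpr (minimum count 10), with Benjamini-Hochberg adjustment over the 15673 genes kept and a threshold of 0.05. ITGB4-high over control and bleomycin over LM2 came from a model of 4 groups (residual degrees of freedom 2, biological coefficient of variation 0.244), and lung over control from a model of 3 classes (3 and 0.243). DESeq2 1.42.0, other scalings, levels and sizes, no filter, leaving out each library, and a clone block were alternatives. Libraries of the same number are the same clone by title, so the numbers pair them. Over 15673 genes the clone difference in control correlated with that in LM2 at 0.00238. The labels do not say whether libraries are separate cultures or mice, so p-values measure only the spread between these libraries.

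The genes, the role lists and the rule for names were chosen with earlier results of these data known. The rule named the 10 lowest and 5 highest genes by ITGB4-high over control, the 5 lowest and 5 highest by lung over control, genes called in a fit, genes at the limits of the selection, and up to 4 genes of highest CPM in each list. NLRP1, DVL2, INPP5K, NUP88 and other genes described beside these were picked after their values were seen. Not every gene the rule picks is reported here. Promoters are from RefSeq (GRCh38.p14), and 17 genes had no entry.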

Additional observations from a re-analysis of the deposited data

Results flagged for a closer look

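For SLC43A2 and MAP2K3 the LM2 libraries of the 2 clones went opposite ways against their own controls by log2 0.5 or more each way. Each value is 1 library, and the difference was not tested. Other short-arm genes had opposite signs at smaller sizes, HES7 among them with -0.40 in clone 1 and 0.24 in clone 3. The share of all genes that did so was not taken, so nothing about the short arm is read from these genes. SLC43A2, an amino acid transporter, had a log2 ratio of LM2 over own control of 0.598 in clone 1 and -0.762 in clone 3. MAP2K3, a kinase upstream of p38, had 1.04 in clone 1 and -0.911 in clone 3. Their levels were 16.6 CPM in LM2 clone 1 and 10.7 CPM in its control, and 8.99 CPM in LM2 clone 3 and 15.9 CPM in its control, for SLC43A2. MAP2K3 was at 33.3 CPM in LM2 clone 1 and 15.7 CPM in its control, and at 11.5 CPM in LM2 clone 3 and 22.4 CPM in its control.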

How the results depend on the processing

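Of 50 alternatives, 34 stayed within the spread or within 1.5 times the reported count. The median log2 ratio of ITGB4-high over control was -0.82 and ran from -0.82 to -0.77 with 1 control left out, and the lung median stayed between -0.03 and 0.03. The median of bleomycin over LM2 in clone 1 was -0.11, and -0.0214 by library totals. The count of genes lower than both controls by log2 0.5 or more was 107, and 63 at a size of log2 0.8.

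Counts of calls depended on the fit, over all genes as well as on the short arm, and the cause was not tested. For ITGB4-high over control, 0 genes were called (0.0893% of all genes), 1 with RLE factors (0.472%), 74 with no filter on low counts (8.14%), 61 by DESeq2 (11%), and 0 to 124 with 1 library left out (0.0% to 42.0%). The clone as a replicate block gave 9 (2.32%), and changed no other call: it gave 0 for lung over control and for bleomycin over LM2. For lung over control, 0 were called, 10 with no filter (6.9% of the short-arm genes, 6.47% of all genes), 6 by DESeq2 (4.14% and 7.95%), and 0 to 5 with 1 library left out (2 without LM2 clone 1, 1.38% and 2.5%, and 5 without LM2 clone 3, 3.45% and 6.55%). For bleomycin over LM2, 0 were called, 1 with no filter (0.69% and 0.709%), and 0 to 31 with 1 library left out (7 without LM2 clone 1, 4.83% and 7.42%, and 31 without LM2 clone 3, 21.4% and 19.2%). The short-arm share was thus near or below that of all genes in these lung and bleomycin fits. The no-filter and left-out fits of bleomycin over LM2 were chosen after seeing the data. When a group keeps 1 library, its spread is assumed to be that of the other groups. With 1 ITGB4-high library, a difference from control is a difference of that library.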
